A study of Mus musculus with 16 samples.

Results

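The acetylation of 10 genes was followed across H3K27Ac peak lists of adult mouse cardiomyocytes: the nuclear receptors Ppara, Ppard, Esrra, Esrrb and Esrrg, their dimer partner Rxra, the coactivators Ppargc1a (PGC-1alpha) and Ppargc1b (PGC-1beta), and the mitochondrial biogenesis factors Nrf1 and Tfam. A peak belonged to the set when the deposited annotation, which assigns a peak by the transcription start closest to it, named one of these 10 genes. This gave 68 of 53959 H3K27Ac peaks, for 10 of the 10927 genes that had any peak. Cardiomyocytes were isolated enzymatically from hearts of 3-month-old mice with intact desmin (Des+/+) or without desmin (Des-/-, a deletion present in every cell of the animal), either untreated (basal) or after swimming exercise (swim). Chromatin of several mice was used for each genotype and condition, with 1 precipitation for H3K27Ac (lysine 27 acetylation of histone H3) and 1 for lamin A/C. Each of the 4 groups therefore had 1 H3K27Ac list, no replicate spread could be estimated, and no test was possible. Intervals given here cover counting error only.

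Acetylation of lysine 27 on histone H3 marks promoters and enhancers in use. PPAR receptors bind DNA as heterodimers with RXR and are activated by fatty acids or their derivatives. In heart they control genes of fatty acid uptake and oxidation. Estrogen-related receptors (ERR) bind a related element and can be active without a ligand. PGC-1 coactivators dock on both receptor families, recruit histone acetyltransferases and couple energy demand to mitochondrial biogenesis. NRF1 acts on nuclear genes for the respiratory chain and on Tfam, whose product packages and transcribes mitochondrial DNA.

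Promoter sequences of Ppard and Nrf1, the members with the highest peaks, and of Rxra, the dimer partner of the PPARs, are shown first, to give the bases beside the starts at which their peaks were listed. RefSeq (GRCm38.p6) holds 250-base windows upstream of 15 starts of 9 of the genes, and 8 of the windows, 1 each for 8 genes, lay under an H3K27Ac peak in at least 1 list. Bases annotated as exon in any transcript were left out, and capitals mark a GC box (GGGCGG) or a CCAAT box on either strand. Ppard is shown at chr17:28232504-28232699, Nrf1 at chr6:30047738-30047984 and Rxra at chr2:27676951-27677200, each on the plus strand and 5′ to 3′.
Ppard: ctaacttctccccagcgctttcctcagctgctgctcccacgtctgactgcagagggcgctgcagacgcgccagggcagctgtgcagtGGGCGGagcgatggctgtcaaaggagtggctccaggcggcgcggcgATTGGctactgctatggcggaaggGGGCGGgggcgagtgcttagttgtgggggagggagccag
Nrf1: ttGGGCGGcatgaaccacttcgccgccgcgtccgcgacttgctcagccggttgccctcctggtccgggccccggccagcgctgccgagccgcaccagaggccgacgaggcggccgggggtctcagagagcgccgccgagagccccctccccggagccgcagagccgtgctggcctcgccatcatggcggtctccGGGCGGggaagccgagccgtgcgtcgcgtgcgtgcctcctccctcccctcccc
Rxra: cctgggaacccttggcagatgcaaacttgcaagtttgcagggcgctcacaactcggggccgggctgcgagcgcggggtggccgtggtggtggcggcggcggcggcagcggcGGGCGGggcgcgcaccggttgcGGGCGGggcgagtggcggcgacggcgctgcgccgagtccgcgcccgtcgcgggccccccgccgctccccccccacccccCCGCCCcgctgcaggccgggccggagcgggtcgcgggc

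Of the 3, Nrf1 had its whole 250-base window under a peak in all 4 lists. The window of Ppard was covered over 43 to 96 bases, since its peaks began close to the start, and that of Rxra over 128 and 142 bases in the basal lists, 31 bases in Des+/+ swim and 0 bases in Des-/- swim. Of the 8 windows under a peak, 7 held a GC box, against 62.7% of the 9869 windows of any gene that lay under a peak and 32.7% of all 32851 windows. A CCAAT box was in 1 of the 8, that of Ppard, against 33.5% of the windows under a peak. The 8 windows held a median of 22 CpG dinucleotides, against 18 for all windows under a peak and 6 for all windows. No window of a member held the ERR response element TCAAGGTCA on either strand (0.387% of all windows did) or the cAMP response element TGACGTCA (1.55%). The window of Ppargc1a adjoined a start at position 51567725, not that of its main transcript at 51553871, and Ppargc1b had no window. The bases upstream of the acetylated starts of both coactivator genes were therefore not searched. The nuclear receptor core site AGGTCA, which is also part of the ERR element, was found in 1 window, at a downstream start of Rxra without a peak, and in 14% of all windows.

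GCGCATGC, the core of the palindrome bound by NRF1, was found upstream of Ppara and Esrra (2.26% of all windows and 5.07% of those under a peak), and the ETS-type site CCGGAAGT, bound by GABP, was found upstream of Tfam (2.88% and 6.99%). These sites are shown in capitals within 30 bases on the strand of the gene, for Ppara at chr15:85735734-85735763, for Esrra at chr19:6921824-6921853 and for Tfam at chr10:71238073-71238102. The Esrra site is in the reverse orientation.
Ppara: ggggctcggtgGCGCATGCgcgcggactag
Esrra: ccccctgttttGCATGCGCaggccggcccc
Tfam: cctgccgcggaCCGGAAGTccgggcttccc

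In Ppara the NRF1 core ended 24 bases before a RefSeq start, overlapped its own reverse complement, and lay under a peak in all 4 lists. In Esrra it lay 27 bases before the start, in a gap between peaks. The nearest upstream peak was 189, 271, 159 and 303 bases away in Des+/+ basal, Des-/- basal, Des+/+ swim and Des-/- swim. Downstream, the nearest peak was 50 bases away in Des+/+ basal and 42 in Des+/+ swim, reached into the site in Des-/- basal, and was 11227 bases away in Des-/- swim. The Tfam site lay under a peak in 3 lists and 18 bases outside the peak in Des-/- swim. A match of letters is a description of the sequence and not evidence of binding.

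All 10 members had a peak in both basal lists and in Des+/+ swim, whereas 7 had one in Des-/- swim. The 3 genes with no peak assigned in Des-/- swim were Ppargc1a, Ppargc1b and Esrrb. In the order Des+/+ basal, Des-/- basal, Des+/+ swim and Des-/- swim, which is kept for every series of 4 values, the members had 21, 20, 18 and 9 peaks among 15757, 16638, 11157 and 10407 peaks in all. Peaks within 3 kb of a start made up 16, 15, 14 and 7 of these. They amounted to 76.2%, 75%, 77.8% and 77.8% of member peaks, close to the 71.5%, 71.2%, 74.4% and 77.3% of all peaks. Of the 10930 genes with a peak in any list, 86.3%, 91.1%, 65.6% and 64.6% had one in the respective list. For the members these shares were 100%, 100%, 100% and 70%. The member share in Des-/- swim was thus near that of all genes, and the widest gap was in Des+/+ swim. Absence from Des-/- swim alone held for 3 of the 10 members, against 8.75% of all genes.

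**Figure D1:**
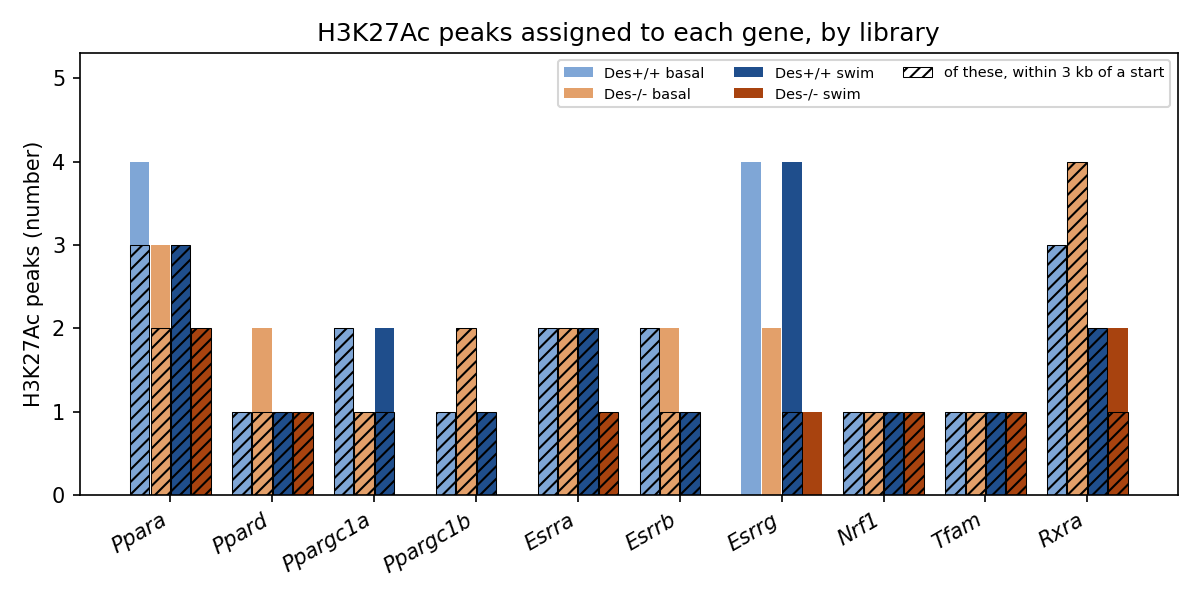
Number of H3K27Ac peaks (vertical axis) assigned to each of the 10 genes (horizontal axis) in the 4 libraries, 1 bar per library; hatching marks peaks within 3 kb of a transcription start. Ppargc1a, Ppargc1b and Esrrb have no bar for Des-/- swim, and Nrf1 and Tfam have 1 peak in each library.

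Peak height is the number of H3K27Ac reads at the summit, and no listed peak was lower than 15 reads. Member peaks had median heights of 19, 22.5, 18.5 and 20 reads, against 23, 23, 20 and 23 reads for all peaks of the same lists. They ranged from 15 to 63, 15 to 81, 15 to 51 and 15 to 55 reads. The 95% Poisson interval of a height of 15, computed exactly, runs from 8.4 to 24.7 reads, so a region listed at 15 in one library and missing from another may differ by little. The reads of the matched input at the same place had medians of 3, 3, 2 and 7 for the members and 3, 3, 3 and 5 for all peaks. Des-/- swim thus combined the fewest member peaks with the highest input beneath them, and the ratio of height to input, with 1 read added to each, had member medians of 6.33, 6.2, 6.17 and 3. The part of the input in the missing peaks was not tested.

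Among the fatty acid receptors, Ppara (chr15:85734983-85802819, plus strand) had 4, 3, 3 and 2 peaks in 3 regions. The region across its start (chr15:85733908-85735480) reached 37, 23, 28 and 20 reads. It was higher in Des+/+ than in Des-/- in both conditions, but the intervals overlapped (26.1 to 51 against 14.6 to 34.5 reads in the basal lists). In Des+/+ this region held 2 separate peaks. The one upstream, with its summit at -672 and -688 bases from the start and 19 and 17 reads high, was listed in Des+/+ basal and Des+/+ swim and in neither Des-/- list. The next region (chr15:85735650-85737148), at the start of another transcript, had 30, 26, 19 and 23 reads. A region in intergenic DNA about 10 kb upstream (chr15:85723861-85725515) was listed with 15 and 21 reads in the basal lists and in neither swim list.

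Ppard (chr17:28232700-28301474, plus strand), the more widely expressed receptor of fatty acids, had the highest peak of the set in 3 of the 4 lists. Its promoter region (chr17:28232658-28234072) reached 59, 81, 51 and 55 reads over inputs of 2, 3, 3 and 7. These heights stood at the 93.5th, 96.9th, 95.4th and 94.4th percentile of their lists, so Ppard kept its rank although the heights differed. An intronic peak of 15 reads (chr17:28247070-28247740) was listed in Des-/- basal alone. Further peaks of 15 to 22 reads inside the second intron of Ppard were assigned by the nearest start to 1810013A23Rik, and at least 1 of them was present in every list.

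Rxra (chr2:27676440-27762957, plus strand), the receptor with which PPARs dimerize, had 3, 4, 2 and 2 peaks. Its main promoter region (chr2:27677170-27679087) reached 35, 35, 17 and 26 reads and was lower in both swim lists than in both basal lists. Relative to the median shared region, its swim to basal ratio was 0.656 in Des+/+ and 0.982 in Des-/-. The region just upstream (chr2:27676003-27677092) had 24 and 22 reads in the basal lists and no peak in either swim list. A region in the first intron (chr2:27679141-27680769) had 19, 17 and 15 reads and was missing from Des-/- swim. Single peaks of 15 reads were listed in Des-/- swim (chr2:27690926-27691427) and in Des-/- basal (chr2:27740174-27740569).

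Esrra (chr19:6910977-6921813, minus strand), the ERR gene most tied to oxidative metabolism, had acetylated regions on both sides of its start. The downstream side (chr19:6920825-6921838) reached 25, 33 and 19 reads and was missing from Des-/- swim. The upstream side (chr19:6922001-6922701), which overlaps the 3′ end of the neighbouring gene Catsperz on the same strand, was listed in all 4 libraries with 23, 31, 19 and 16 reads. Both sides were highest in Des-/- basal, and in Des-/- swim a peak was listed on the upstream side alone.

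Esrrb (chr12:86361117-86521628, plus strand), an ERR gene best known from pluripotent cells, had a promoter region (chr12:86360945-86362162) of 21, 16 and 21 reads that was missing from Des-/- swim. In Des+/+ basal the region was divided into peaks of 19 and 21 reads. An intronic peak of 15 reads (chr12:86371446-86371847) was listed in Des-/- basal. The part of the Esrrb promoter upstream of the start is shown next from chr12:86360867-86361107 on the plus strand. Its 250-base window was under a peak over 172 and 162 bases in the basal lists and over 0 bases in both swim lists. It held none of the 7 motifs searched, and so has no capitals.
Esrrb: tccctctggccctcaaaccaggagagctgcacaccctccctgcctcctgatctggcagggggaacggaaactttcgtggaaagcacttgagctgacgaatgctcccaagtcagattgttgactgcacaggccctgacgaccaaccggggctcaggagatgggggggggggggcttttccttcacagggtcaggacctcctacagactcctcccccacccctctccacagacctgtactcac

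Esrrg (chr1:187608791-188214885, plus strand), an ERR gene with high expression in heart, was the member with the most scattered acetylation, with 4, 2, 4 and 1 peaks in 5 regions. One region (chr1:187651786-187652393) was in all 4 lists with 16, 30, 25 and 18 reads. The deposited annotation placed it 42090 to 42194 bases from the nearest start, yet RefSeq has Esrrg starts at positions 187651758 and 187652241, beside and within it. It also covers the start of the antisense RNA gene Gm36388. A peak of 16 reads at the annotated 5′ start (chr1:187609359-187609664) was listed in Des+/+ swim alone.

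Esrrg also had 3 regions deep in its intron 3. Those at chr1:187836426-187836945 (18 reads in each list) and chr1:187910968-187911720 (18 and 15 reads) were listed in Des+/+ basal and Des+/+ swim and in neither Des-/- list. Of all 18277 regions formed by merging the 4 lists, 1.26% had this pattern, and no other member region had it. The third, at chr1:187938332-187938827, had 17 and 16 reads in the basal lists. All these heights were within 3 reads of the lowest height a list could hold.

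Ppargc1a (chr5:51454250-51567726, minus strand), the exercise-responsive coactivator, had weak acetylation throughout. The region (chr5:51551757-51553789) lies just downstream of the start of its main transcript at position 51553871. It had 18, 18 and 15 reads and no peak in Des-/- swim. In Des+/+ basal it held 2 peaks, of 15 and 18 reads. A further peak of 15 reads in Des+/+ swim (chr5:51592036-51592472) was labelled intergenic at a deposited distance of -24310 bases from the nearest annotated start. All Ppargc1a heights were below the median of their list, between the 4.95th and the 28.5th percentile. The intronic bases around the highest summit, at chr5:51553096-51553265 on the minus strand, held none of the 7 motifs.
Ppargc1a: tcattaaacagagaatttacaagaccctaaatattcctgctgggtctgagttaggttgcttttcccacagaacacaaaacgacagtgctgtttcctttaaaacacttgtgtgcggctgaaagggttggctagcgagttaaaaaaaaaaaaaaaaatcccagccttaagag

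Nrf1 (chr6:30047988-30153458, plus strand) had 1 broad peak over its start in each list (chr6:30047126-30049377). It reached 63, 73, 37 and 41 reads, at the 94.5th, 95.6th, 88th and 86.3rd percentile. Both basal heights were above both swim heights. Input beneath it was 3, 4 and 2 reads in the first 3 lists and 10 in Des-/- swim, and the ratio of height to input was 16, 14.8, 12.7 and 3.82. Heights as deposited were lower in the swim lists at most shared regions, as described later. Relative to the median shared region, the swim to basal ratios of Nrf1 were 0.793 in Des+/+ and 0.743 in Des-/-.

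Tfam (chr10:71225464-71238280, minus strand), which encodes the mitochondrial transcription factor A, also had 1 peak over its start in each list (chr10:71237523-71238575). Its heights were 19, 26, 16 and 20 reads over inputs of 2, 5, 5 and 8. Des-/- was higher than Des+/+ in each condition, by 7 and 4 reads, which is within the counting intervals (17 to 38.1 against 11.4 to 29.7 reads in the basal lists). Nrf1 and Tfam were thus the members whose peak number was 1 in every list.

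Ppargc1b, the coactivator related to PGC-1alpha, needs a separate account because a microRNA gene, Mir378a, lies in its first intron close to the start. Peaks assigned to Ppargc1b that covered its start (chr18:61398042-61401019) had heights of 33, 38 and 31 reads, and none was listed in Des-/- swim. Beside it, peaks assigned to Mir378a were listed in Des-/- basal (chr18:61397192-61399018, 46 reads), Des+/+ swim (chr18:61396581-61399052, 30 reads) and Des-/- swim (chr18:61397225-61399008, 22 reads over an input of 9). The single peak of Des+/+ basal spanned both places. Its summit of 33 reads lay 1664 bases from the nearest start, within the intervals assigned to Mir378a in the other lists. The summits of 38 and 31 reads lay 403 and 453 bases from that start. The height on the start side is therefore not known for Des+/+ basal. In Des-/- swim the intronic side of the locus was therefore acetylated and the side over the start was not listed. Of the 2200 Des+/+ swim peaks at least as high as the 31 reads at the start of Ppargc1b, 17 (0.773%) had no partner in Des-/- swim. On chromosome 18 as a whole, 26.8% of 381 Des+/+ swim peaks had no partner there, close to the share over all chromosomes.

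**Figure D2:**
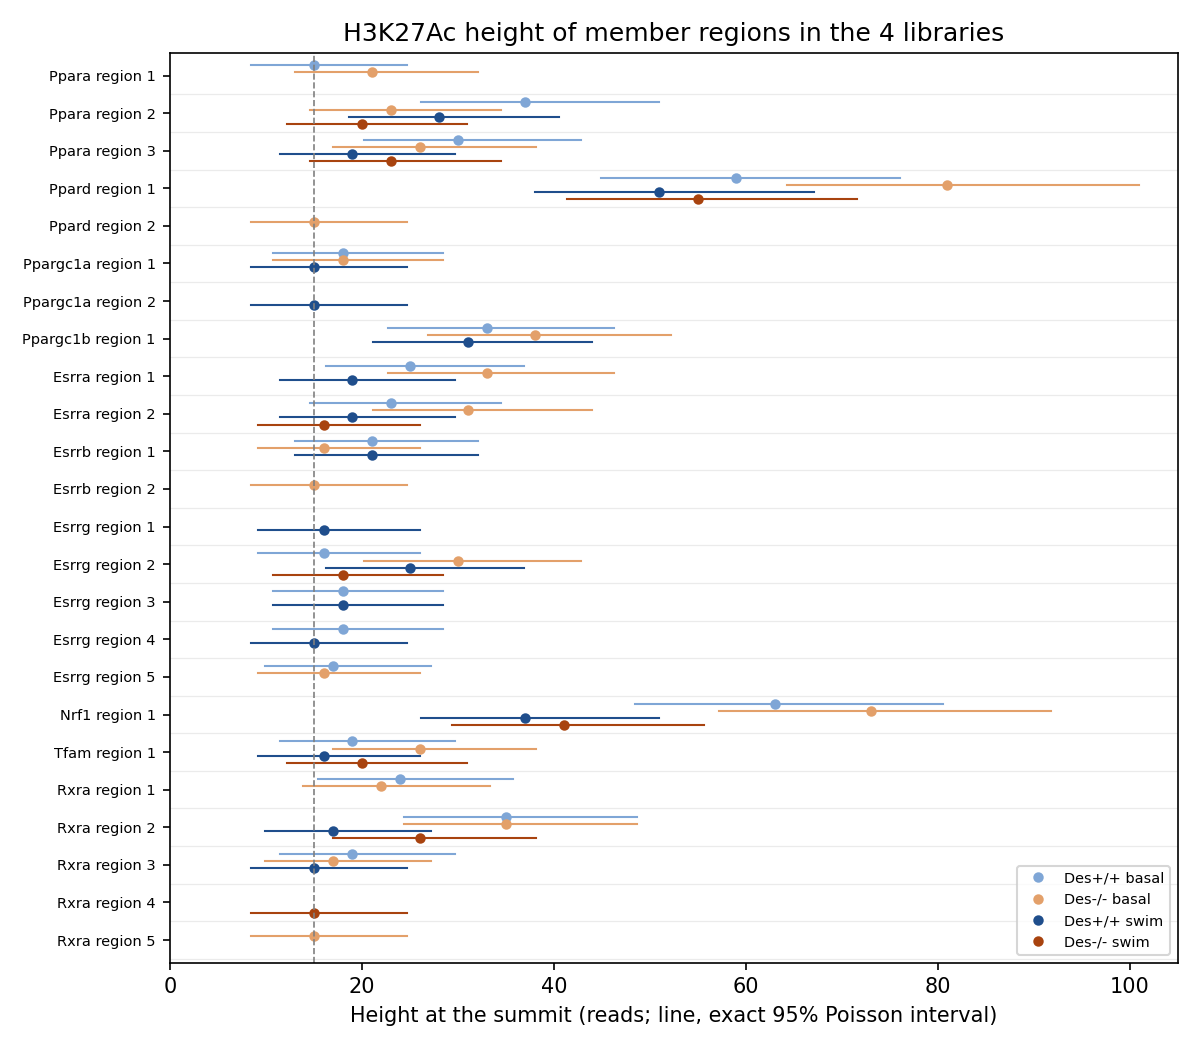
Height at the summit in reads (horizontal axis) of the highest peak assigned to the gene in each of the 24 member regions (rows), with exact 95% Poisson intervals as lines, 1 colour per library; the dashed line is the lowest height listed, 15 reads. Ppard region 1 and Nrf1 region 1 stand above the others, and the regions without a Des-/- swim point are at 15 to 24 reads in the other libraries, apart from Ppargc1b region 1 and Esrra region 1, which reach 38 and 33.

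Overlapping peaks of the 4 lists were merged into regions, of which 24 held a member peak. Of these, 9 were in all 4 lists (37.5%), against 37.7% of all 18277 regions. They were the start regions of Ppard, Nrf1, Tfam and Ppargc1b, both start regions of Ppara, the upstream side of Esrra, the main promoter region of Rxra and the internal start of Esrrg. Ppargc1b counted through the peak of Mir378a, and with peaks assigned to the members alone the number was 8. Member regions missing from Des-/- swim alone numbered 4 (of Ppargc1a, Esrra, Esrrb and Rxra), whereas 8.63% of all regions had this pattern. None was missing from Des+/+ swim alone, which held for 6.4% of all regions.

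To ask which acetylation differed with genotype under basal conditions, peaks of Des-/- basal and Des+/+ basal were compared. Without an overlapping partner in Des+/+ basal were 3 of 20 Des-/- basal peaks (15%, 19.7% of all peaks), each 15 reads high, of Ppard, Esrrb and Rxra. In the other direction 3 of 21 Des+/+ basal peaks (14.3%, 14.5% of all) had no partner, the upstream peak of Ppara and 2 intronic peaks of Esrrg, at 18 to 19 reads. Both shares were near the background. Of the member peaks of 20 reads or more, 0 of 12 in Des-/- basal (5.16% of all) and 0 of 10 in Des+/+ basal (2.95% of all) lacked a partner.

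Heights at shared regions were compared as ratios divided by the median ratio of all shared regions, with 1.5-fold as the limit for naming a difference. Of 16 member regions shared by the basal lists, with a median of 1.02 (0.587 to 1.77), 1 was past the limit in each direction. The internal start of Esrrg was higher in Des-/- basal, with 30 against 16 reads and a relative ratio of 1.77 (exact binomial interval 0.935 to 3.48), as were 2.92% of all 12247 shared regions. The start region of Ppara was lower, with 23 against 37 reads and a ratio of 0.587 (0.333 to 1.01), as were 3.11% of all. Both intervals included 1, so at this depth neither difference could be told from counting error.

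After swimming, 10 of 18 Des+/+ swim peaks (55.6%, Wilson interval 33.7 to 75.4%) had no partner in Des-/- swim, against 27% of all Des+/+ swim peaks. They belonged to Ppara, Ppargc1a, Ppargc1b, Esrra, Esrrb, Esrrg and Rxra, and none to Ppard, Nrf1 or Tfam. In the other direction 1 of 9 Des-/- swim peaks (11.1%) had no partner in Des+/+ swim, an intronic Rxra peak of 15 reads, against 22.2% of all. Of the 10 peaks, only that of Ppargc1b had a counting interval (21.1 to 44 reads) wholly above the limit of 15. Among Des+/+ swim peaks of at least 20 reads, 2 of 6 member peaks (those of Ppargc1b and Esrrb) lacked a partner, against 8.98% of all.

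When the limit of 20 reads was set in both lists, 3 of 6 member peaks lacked a partner in each direction. The shares of all peaks were 17.3% in Des+/+ swim and 26.3% in Des-/- swim. Partners below 20 reads were then left out, so this does not show whether the imbalance between directions held. When the limit was set in the first list alone, 0 of 6 Des-/- swim peaks lacked a partner (8.74% of all). With the 10407 highest peaks of each list the counts stayed at 10 of 18 (25.1% of all) and 1 of 9 (25% of all). The Des-/- swim list holds 10407 peaks and was not cut, and all 18 member peaks of Des+/+ swim were kept. This setting therefore says little about whether the imbalance held. The list of Des-/- swim also lacked 4 of the 10 cardiomyocyte markers that were checked (Actc1, Actn2, Mybpc3 and Myl2), each of which had a peak in the other 3 lists. The markers with a peak numbered 9, 9, 9 and 5 of 10 for cardiomyocytes, 8, 8, 7 and 6 of 8 for endothelial cells, 1, 3, 0 and 0 of 8 for fibroblasts, 0, 1, 0 and 0 of 8 for leukocytes, and 0 of 6 for pericytes and smooth muscle in every list. The part of these differences in the missing member peaks was not tested.

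**Figure D3:**
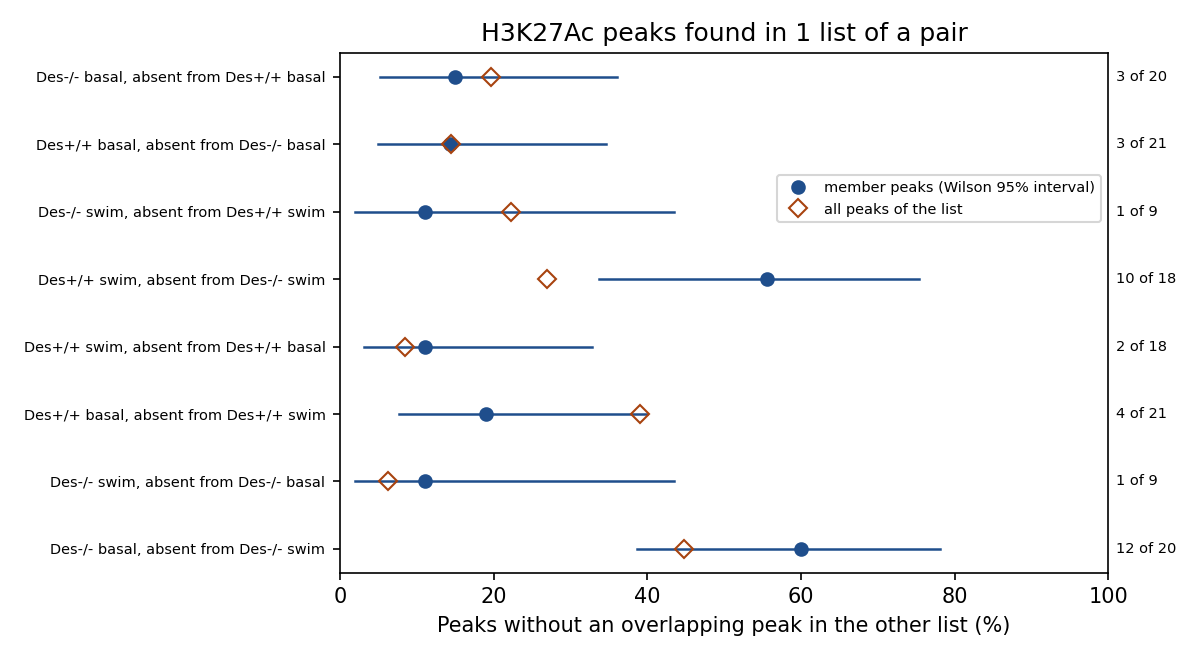
Share of H3K27Ac peaks of 1 list without an overlapping peak in the other list of a pair (horizontal axis, %), for member peaks (circles, with Wilson 95% intervals) and for all peaks of the list (diamonds); the numbers at the right are member peaks without a partner of all member peaks. In Des+/+ swim against Des-/- swim, 55.6% of member peaks (interval 33.7 to 75.4%) and 27% of all peaks had no partner. The intervals treat peaks of the same gene as independent and are not a test.

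At the 8 member regions shared by the swim lists the relative height ratio of Des-/- to Des+/+ had a median of 0.987 (0.645 to 1.38). None was past the limit upward, as were 3.55% of all 7492 shared regions. The start region of Ppara (20 against 28 reads, ratio 0.645, interval 0.345 to 1.19) and the internal start of Esrrg (18 against 25 reads, 0.65, 0.334 to 1.24) were past it downward, as were 4% of all. Ppard (55 against 51 reads, 0.974) and Nrf1 (41 against 37 reads, 1) had nearly the same relative height in both genotypes. The counting interval of each of the 8 ratios included 1.

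Swimming was then compared with the basal condition within each genotype, in comparisons that share libraries with the 2 before. In Des+/+, 2 of 18 swim peaks (11.1%, 8.39% of all) had no basal partner, the intergenic peak of Ppargc1a and the 5′ start peak of Esrrg. Of the basal peaks, 4 of 21 (19%, 39% of all) had no swim partner, namely peaks of Ppara, Esrrb, Esrrg and Rxra of 15 to 24 reads. With the 10407 highest peaks of each list, 7 of 18 Des+/+ swim peaks (17.4% of all) had no basal partner, since low basal peaks were then left out. In Des-/-, 1 of 9 swim peaks (11.1%, 6.28% of all) had no basal partner, and 12 of 20 basal peaks (60%, Wilson interval 38.7 to 78.1%, 44.8% of all) had no swim partner. These 12 peaks belonged to 8 genes, leaving Nrf1 and Tfam as the members without one.

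At a minimum of 20 reads in both lists, 5 of 10 Des+/+ basal peaks (43.9% of all) had no swim partner. The same held for 6 of 12 Des-/- basal peaks (40.9% of all). Swim partners below 20 reads were then left out, so this does not show whether the higher share in Des-/- held. Whether the shares differ between genotypes could not be tested with 1 list each. Of the 12 Des-/- basal peaks, those of Ppargc1b (38 reads) and Esrra (33 reads) were the 2 whose counting intervals lay above 15 reads. Among basal peaks of at least 20 reads, with no such minimum in the swim list, 4 of 12 member peaks of Des-/- lacked a partner (24.9% of all). In Des+/+ it was 1 of 10 (19.4% of all). With the 10407 highest peaks of each list the number without a swim partner was 4 of 12 in Des-/- (24.4% of all) and 2 of 13 in Des+/+ (24% of all), so most of the 12 were peaks low in the longer basal list.

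Heights as deposited were lower in the swim lists, with median ratios of 0.741 in Des+/+ and 0.756 in Des-/- over all shared regions. Depth is not known for each library, and its part in this was not tested. Relative to the overall median, the 16 shared member regions of Des+/+ had a median of 1.13 (0.656 to 2.11). The internal start of Esrrg was higher after swimming in Des+/+, with 25 against 16 reads and a relative ratio of 2.11 (1.08 to 4.23), as were 5.27% of all 9087 regions. The main promoter region of Rxra was lower, with 17 against 35 reads and a ratio of 0.656 (0.344 to 1.2), as were 3.86% of all. Of the 6 member ratios past the limit in the 4 comparisons, that of Esrrg was the one whose interval did not include 1. This depended on the scaling: as deposited, the ratio was 1.56 (0.802 to 3.13) for Esrrg and 0.486 (0.255 to 0.891) for Rxra.

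In Des-/- the 8 shared member regions had a median of 0.94 (0.683 to 1.17) between swim and basal. None was past the limit, upward (4.32% of all 8706 regions) or downward (3.03%). The internal start of Esrrg, at 18 against 30 reads, had a relative ratio of 0.794 (0.417 to 1.47) here. The upstream side of Esrra had the lowest value, with 16 against 31 reads and 0.683 (0.349 to 1.29). The change with swimming at Esrrg therefore had opposite signs in the 2 genotypes, but its intervals overlapped and the difference was not tested.

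**Figure D4:**
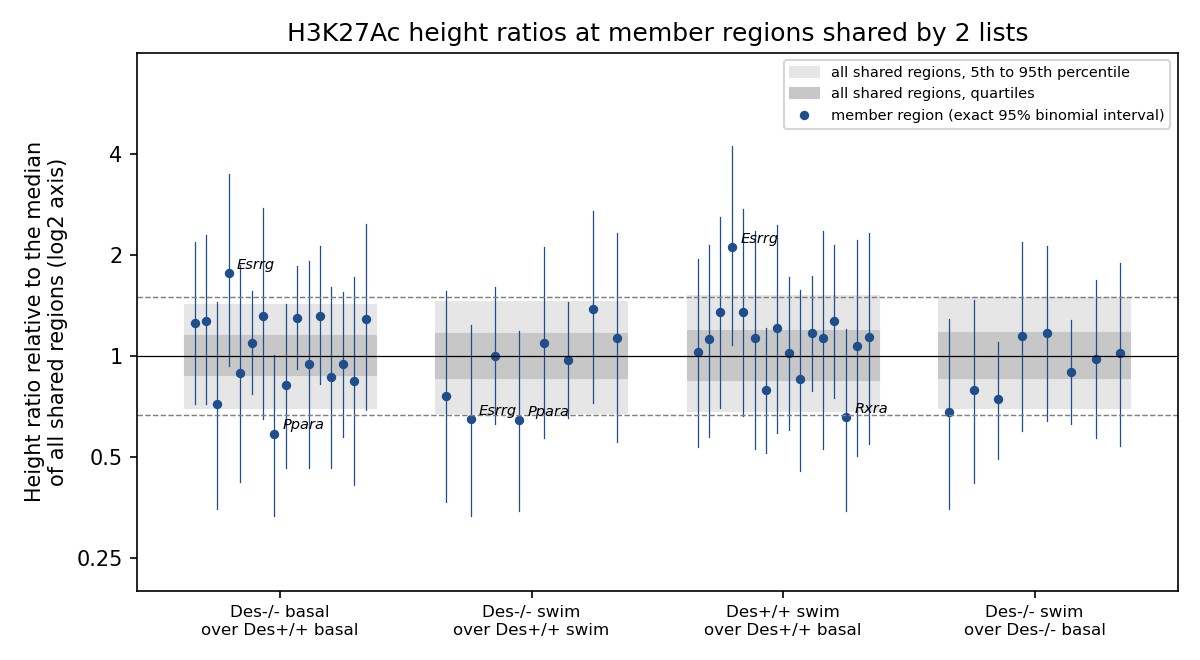
Ratio of summit heights between 2 lists at member regions they share, divided by the median ratio of all shared regions (vertical axis, log2 scale), for 4 comparisons (horizontal axis); points are member regions with exact 95% binomial intervals, grey bands the quartiles and the 5th to 95th percentile of all shared regions, dashed lines 1.5-fold. Of the points past a dashed line, which carry gene names, Esrrg in Des+/+ swim over basal (2.11) is the one whose interval does not include 1 on this scale; the Ppargc1b point in Des-/- basal over Des+/+ basal uses the Mir378a peak.

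Other genes of the same regulatory system were read from 3 lists. Of 26 partner receptors and coregulators, 22, 23, 21 and 19 had a peak, and 19 had one in all 4 lists (73.1%, against 52.6% of the 10930 genes with a peak in any list and 7 of the 10 members). Ep300 and Crebbp, the acetyltransferases that place this mark, were among the highest, at 97, 104, 76 and 82 reads and at 74, 115, 52 and 60 reads. Lpin1 and Prkaa2 (the alpha 2 subunit of AMP-activated kinase) had peaks in all lists but Des-/- swim, of up to 24 and 28 reads (7.69% of the list, against 8.75% of all genes). Rxrb, Rxrg and Sirt3 had none in any list. Pprc1, another PGC-1 family member, had 1 peak in each list, at 44, 54, 30 and 41 reads.

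Of 18 mitochondrial biogenesis factors, 11, 12, 8 and 10 had a peak and 7 had one in all 4 lists (38.9%). Here Des+/+ swim, not Des-/- swim, was the list with the fewest. Tfb2m and Tefm, which act in mitochondrial transcription, had peaks in every list but Des+/+ swim, of 16 to 24 reads (11.1% of the list, against 7.2% of all genes). Of the 18, 0 were missing from Des-/- swim alone, against 8.75% of all genes. Gabpb1, a subunit of the factor that binds the site shown for Tfam, had 88, 107, 63 and 68 reads. Gabpa, which encodes another subunit of that factor, had no peak in any list.

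Of 26 PPAR and ERR target genes, 22, 23, 22 and 17 had a peak, and 17 had one in all 4 lists (65.4%). Acadm, Hadha, Fabp3 and Mlycd, of fatty acid oxidation and transport, had peaks in all lists but Des-/- swim (15.4% of the list, against 8.75% of all genes and 3 of the 10 members). Their highest peaks in Des+/+ swim had 19, 16, 27 and 31 reads. Cpt1b, which admits long-chain fatty acids to mitochondria, kept 1 peak in each list at 34, 35, 23 and 18 reads, and Cd36, the fatty acid transporter, had 16, 17, 15 and 15 peaks. Cpt2 had a peak in the basal lists alone.

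Lamin A/C, a nuclear lamina protein precipitated from cardiomyocytes of the same 4 groups, had 188, 831, 635 and 536 peaks. None of these 2190 peaks was assigned to a member, which allows a share of up to 0.137% (3 in 2190), and none overlapped the body of a member gene. The members were 10 of the 10927 genes with an H3K27Ac peak, so a count of 0 in lists of this size says little about them.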

How the data were processed

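Chromatin precipitated for H3K27Ac or lamin A/C was sequenced by the authors from adult cardiomyocytes of 4 groups, and 8 peak lists from 16 samples were analysed; input libraries have no list of their own. Per the labels, reads were aligned to GRCm38 (mm10) with Bowtie2 2.4.4, sorted with SAMtools 1.13, called with a script of the laboratory, and annotated with ChIPseeker 1.36.0. The deposited height and input columns hold read coverage (signal) at the summit, not scaled to depth, and the deposited distance to the nearest start was read as a score in bases. The labels give 1 approximate read number for all samples and the lists hold no total per library, so differences in depth between libraries are unknown. Deposited p-values and false discovery rates were not used.

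Peaks named for a member were taken as listed. Peaks sharing at least 1 bp were partners. Promoter peaks lay within 3 kb of a start by the deposited distance; the deposited promoter label itself extends to 1 kb. Height ratios were divided by the median over all shared regions, with exact binomial intervals, and shares have Wilson intervals. The Wilson intervals treat peaks of the same gene as independent and are not a test. Python 3.11.15, pandas 2.3.3 and scipy 1.17.1 were used, and the overlap code was tested on simulated peaks. Gene positions are those of GENCODE M21, of the same build. Members and gene lists were chosen with earlier results of these data known. With 1 library per group no test was run. Alternatives were minimum heights of 20 and 30 reads, equal numbers of peaks, 1 kb promoters, 50% overlap, input subtraction, unscaled heights, exclusion of inputs above 10 reads, and assignment by gene body plus 3 kb upstream. All members, and the genes of the 3 pathway lists by their counts, were described; those named were the genes absent from 1 or more lists, or those with known central roles, chosen after their values were seen.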

Additional observations from a re-analysis of the deposited data

How the results depend on the processing

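No paired analysis was possible because each group had 1 library. With values in the order Des+/+ basal, Des-/- basal, Des+/+ swim and Des-/- swim, a minimum height of 20 reads left 10, 12, 6 and 6 member peaks. In Des+/+ swim it left 6 members with a peak and 5 with a promoter peak. At 30 reads there were 6, 7, 3 and 2 peaks, 5, 6, 3 and 2 members with a peak, and 5, 5, 3 and 2 with a promoter peak. Equal numbers of the highest peaks left 13 and 12 member peaks in the basal lists.

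Peaks without a partner changed as follows, with the share of all peaks in parentheses. At 20 reads in both lists they numbered 1 of 10 for Des+/+ basal against Des-/- basal (12.7%), 3 of 6 for Des-/- swim against Des+/+ swim (26.3%) and 3 of 6 for the reverse (17.3%). Within genotypes they were 1 of 6 for Des+/+ swim against basal (4.89%), 5 of 10 for the reverse (43.9%), 0 of 6 for Des-/- swim against basal (4.5%) and 6 of 12 for the reverse (40.9%). At 30 reads they were 0 of 2 for Des-/- swim against Des+/+ swim (33.1%), 1 of 3 for the reverse (12.4%), 0 of 3 for Des+/+ swim against basal (2.55%), 0 of 2 for Des-/- swim against basal (3.35%) and 5 of 7 for the reverse (46.7%). With equal numbers of peaks they were 7 of 18 for Des+/+ swim against basal (17.4%), 2 of 13 for the reverse (24%) and 4 of 12 for Des-/- basal against swim (24.4%). An alternative chosen after seeing the data required 20 reads in the first list alone. It gave 0 of 12 for Des-/- basal against Des+/+ basal (5.16%), 0 of 10 for the reverse (2.95%), 0 of 6 for Des-/- swim against Des+/+ swim (8.74%), 2 of 6 for the reverse (8.98%), 0 of 6 for Des+/+ swim against basal (1.3%), 1 of 10 for the reverse (19.4%), 0 of 6 for Des-/- swim against basal (1.54%) and 4 of 12 for the reverse (24.9%). These alternatives cut the lists by construction.

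The median height ratio of members moved to 1.18 between genotypes in basal lists at 30 reads. As deposited, without division by the overall median, it was 0.833 for Des+/+ and 0.711 for Des-/- between swim and basal. Overlap of 50%, 1 kb promoters, input subtraction, exclusion of high inputs and assignment by gene body moved no count by more than 1.5 times and no median beyond its counting interval. Assignment by gene body gave 24, 22, 19 and 12 member peaks in the same order of lists, with 1 over Ppargc1b in Des-/- swim. Shares without a partner were not recomputed under it. Most missing peaks had counting intervals that reached below 15 reads, which limits what their absence from another list shows.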
